A study of Mus musculus with 3 samples.

Results

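Lymphocytes carried along in a sort for liver monocytes were picked out cell by cell from single-cell RNA-seq of mouse livers. Barcodes with at most 10% of their UMIs (unique molecular identifiers, 1 per captured transcript) on mitochondrial genes were kept. A kept barcode counted as a T member when at least 2 of the 4 genes Cd3d, Cd3e, Cd3g and Trbc2 had a UMI, and as a B member when at least 2 of Cd79a, Cd79b, Ms4a1 and Ebf1 had one. The rule found 87 barcodes among the 16307 kept, of 18075 deposited. Of these 41 were T members and 46 were B members, and 0 barcodes met both rules.

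The libraries came from male C57BL/6 mice of 8 weeks that were fasted for 12 h, given 300 mg/kg acetaminophen (an overdose that injures the liver) into the abdomen, returned to chow 2 h later and studied at 24 h. Livers were perfused and digested, and cells labelled as Ly6Chi monocytes were sorted and run on 10x Genomics 3′ chemistry. Both control libraries (control 1 and control 3, named by their replicate numbers) were from Commd10fl/fl mice, which carry the floxed gene without its deletion, and the single knockout library (knockout 4) was from LysMDCommd10 mice. LysM (Lyz2) drives deletion in myeloid cells, so lymphocytes are not the cells in which Commd10 was meant to be deleted, and every animal received acetaminophen. Whether 1 mouse or several went into each library is not given, so the p-values below measure the spread between libraries only, with 1 library on the knockout side.

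T cells carry a receptor of alpha and beta or gamma and delta chains, which signals through the CD3 proteins. B cells carry an immunoglobulin that signals through CD79A and CD79B, and plasma cells secrete it. The liver holds many resident and recirculating lymphocytes, among them cytotoxic, innate-like and gamma delta T cells. Ly6C is not unique to monocytes, since memory CD8 T cells and plasma cells are known to carry it too.

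Depth was similar in both controls and lower in the knockout. The kept barcodes that met neither rule, called the other cells below, numbered 4120, 7554 and 4546 in control 1, control 3 and knockout 4, and their median depth was 8741, 8102.5 and 6804 UMIs. The study stated 4860, 8149 and 5229 cells, against 4814, 8109 and 5152 barcodes in the files and 4157, 7587 and 4563 after the mitochondrial limit. That limit removed 1 barcode that met the T rule and 3 that met the B rule. In the other cells Commd10 stood at 0.176, 0.103 and 0.0841 UMIs per 10000 UMIs. UMIs read at the 3′ end need not lie in the deleted piece of the gene, so this level does not check the label. The T members held 7 Commd10 UMIs and the B members 2, all of them in control 1. In knockout 4 the T members held 33346 UMIs in all and the B members 30992. At the level of the other cells that is too few to expect a Commd10 UMI, so its absence there shows no loss. Of the 329554 UMIs of the control 1 T members, 287360 lay in barcodes that also carried a monocyte transcriptome, described below. Pairs of libraries shared 26, 8 and 24 barcode sequences, and 0 of the shared barcodes was a member.

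In control 1, T members made up 0.433% of kept barcodes (18 of 4157, exact Clopper-Pearson 95% interval 0.257 to 0.683%). The share was 0.198% in control 3 (15 of 7587, 0.111 to 0.326%) and 0.175% in knockout 4 (8 of 4563, 0.0757 to 0.345%). Over the 3 libraries it was 0.251% (0.180 to 0.341%), and intervals cover counting error only. The B members followed the same order, at 0.457% (19 barcodes, 0.275 to 0.713%), 0.237% (18 barcodes, 0.141 to 0.375%) and 0.197% (9 barcodes, 0.0902 to 0.374%), with 0.282% (0.207 to 0.376%) over all. The interval of each library overlapped that of both others for T and for B members. With 2 libraries against 1, no exact permutation test of a share between genotypes can pass the threshold of 0.05 (the smallest p it allows is 0.333), and a share of a sorted sample also depends on the gate.

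**Figure D1:**
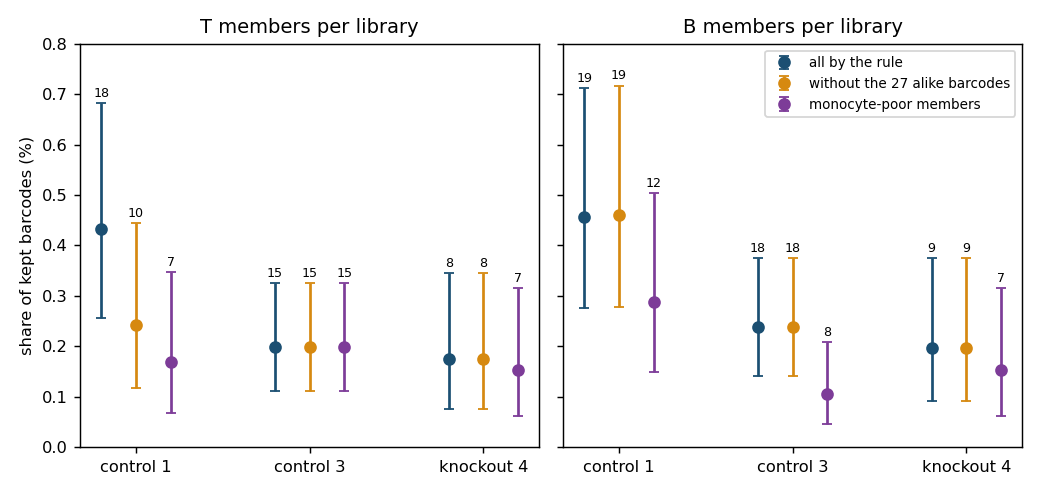
Share of kept barcodes (%, vertical axis) that met the T rule (left) or the B rule (right) in each library, with exact 95% intervals and the number of members above each bar. Colours give all members, members without 27 near-identical barcodes of control 1, and members with few monocyte transcripts. Control 1 has the highest T share, 0.433%, before the near-identical barcodes are left out, and 0.242% after.

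Many of the members also carried a monocyte transcriptome. For each barcode the share of UMIs on 20 monocyte and macrophage genes (Lyz2, Csf1r, Ccr2, Fn1 and others) was divided by the median share of the other cells of its library. Below 0.25 of that median lay 29 T and 27 B members, called monocyte-poor here, and 12 T and 19 B members were monocyte-rich. Summed, the 20 genes took 23.5 UMIs per 10000 UMIs in monocyte-poor T members and 30.6 in monocyte-poor B members, 6.31% and 8.28% of the other cells' level. In monocyte-rich T and B members they took 405 and 323 per 10000, against 369 in the other cells. The monocyte-poor members were shallow, with a median of 2976 UMIs for T and 2246 for B, and the monocyte-rich ones deep, with 27220.5 and 9763, against 7831 in the other cells. Depth thus moved with the monocyte share among members. The part of depth, and of barcodes that hold more than 1 cell, was not tested, and no doublet caller was run.

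**Figure D2:**
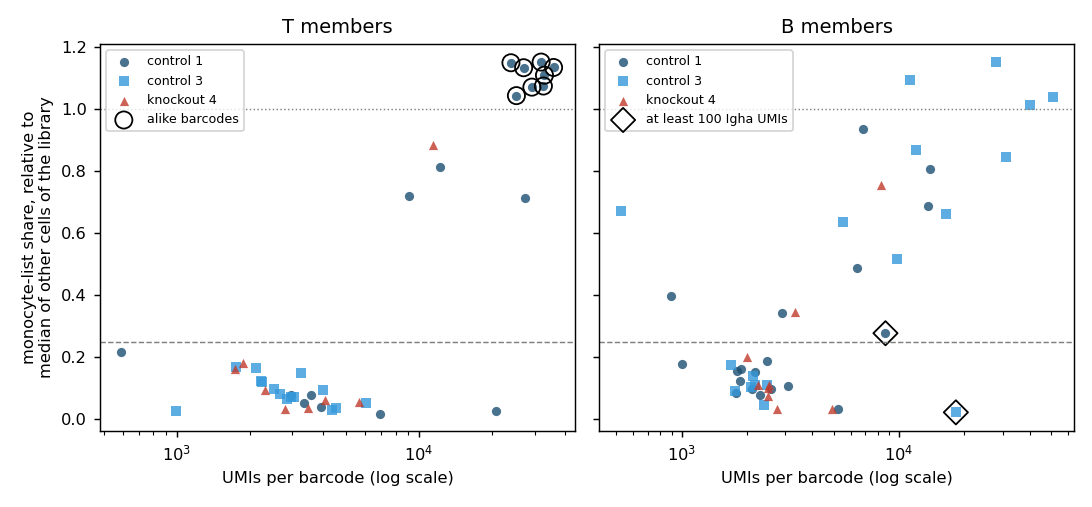
Each T member (left) and B member (right) by its total UMIs (horizontal, log scale) and its share of UMIs on the 20 monocyte genes relative to the median other cell of its library (vertical, 1 is that median). The dashed line marks 0.25; circles mark the 8 T members among the near-identical barcodes of control 1, and diamonds the 2 B members rich in Igha. Most monocyte-poor members lie under 10000 UMIs.

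The monocyte-rich T members belonged almost wholly to 1 library: 11 of the 12 were in control 1, 0 in control 3 and 1 in knockout 4. Of those 11, 8 belonged to a group of 27 barcodes of control 1, called near-identical here. Their total UMIs differed, and the likeness lay in how the UMIs were divided among genes. The group was formed by linking pairs of barcodes with a low chi-square statistic between their counts. Across the 28 pairs of these 8 members, the chi-square statistic per degree of freedom between their counts ran from 0.974 to 1.29 with a median of 1.08, where 1 is sampling noise alone. All pairs of the 1482 barcodes of control 1 with at least 10000 UMIs had a median of 2.36 and a 1st percentile of 1.55. Low values within the group follow largely from how it was chosen, so this contrast describes the group and does not test it. The 27 barcodes held 18394 to 44727 UMIs each, and 36 UMIs of the T rule genes lay in 17 of them. Without them control 1 had 10 T members of 4130 kept barcodes (0.242%), and the 3 libraries together 33 (0.203%). The group was taken for its T members, so a lower T share without it follows from that choice. Monocyte-poor T members made up 0.168%, 0.198% and 0.153% of control 1, control 3 and knockout 4 (7, 15 and 7 barcodes), so the higher T share of control 1 was not present among them. For B members the monocyte-poor share was 0.289%, 0.105% and 0.153% (12, 8 and 7 barcodes), with control 1 still highest.

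Because the rule needs UMIs of few genes, it was also applied after each barcode was thinned to 1000 UMIs, leaving shallower barcodes out. It then found 24 T members, 5 of 4037 barcodes in control 1 (0.124%), 13 of 7296 in control 3 (0.178%) and 6 of 4330 in knockout 4 (0.139%), or 0.153% pooled. It found 13, 9 and 7 B members (0.322%, 0.123% and 0.162%, or 0.185% pooled). At equal depth control 1 no longer had the highest T share, and it kept the highest B share.

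The values that chose the members are given as a description only. Among T members 25 had UMIs of all 4 rule genes, 8 of 3 and 8 of 2. Of the 25 with all 4, 22 were monocyte-poor. Just outside the threshold stood 63 barcodes with a UMI of exactly 1 T rule gene, with a median of 8647 UMIs and a median monocyte share 1.03 times that of the other cells, and 3 of them were monocyte-poor. Among B members 33 had all 4 rule genes (24 monocyte-poor), 5 had 3 and 8 had 2, against 1004 barcodes with exactly 1. Most of the latter had Cd79b, which had a UMI in 914 of the 16220 other cells (5.64%). Of the 8 B members with 2 rule genes, 5 had 1 UMI each of Cd79b and Ebf1, and 0 of those 5 were monocyte-poor. In the other cells the remaining rule genes were rare: Ebf1 was in 65 (0.401%), Cd3d in 36 (0.222%), Cd79a in 23 (0.142%), Trbc2 in 17 (0.105%), Cd3g in 6, Cd3e in 4 and Ms4a1 in 0, which allows a share of up to 0.0185%.

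The CD3 genes lie side by side on chromosome 9 and their start regions are shown because the rule rests on them. Cd3g (GRCm38 chr9:44969572-44980431, minus strand) and Cd3d (chr9:44981786-44987339, plus strand) point away from each other with starts 1355 bases apart, and Cd3e (chr9:44998740-45009627, minus strand) starts 27841 bases from Cd3d. The 150 bases before each RefSeq start on GRCm38.p6 follow, 5′ to 3′ on the gene's strand. Capitals mark the letters CACCTG of an E box, which basic helix-loop-helix and zinc-finger factors can bind, or, in Cd3e, the reverse complement of the Ets-type letters CAGGAAGT.
Cd3g, chr9:44980432-44980581, minus strand: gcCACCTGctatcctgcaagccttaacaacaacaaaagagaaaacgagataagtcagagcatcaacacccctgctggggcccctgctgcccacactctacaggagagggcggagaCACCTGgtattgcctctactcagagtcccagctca
Cd3d, chr9:44981636-44981785, plus strand: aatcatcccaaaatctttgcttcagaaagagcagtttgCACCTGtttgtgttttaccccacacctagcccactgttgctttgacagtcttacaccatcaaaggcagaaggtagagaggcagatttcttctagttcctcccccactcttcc
Cd3e, chr9:45009612-45009761, minus strand: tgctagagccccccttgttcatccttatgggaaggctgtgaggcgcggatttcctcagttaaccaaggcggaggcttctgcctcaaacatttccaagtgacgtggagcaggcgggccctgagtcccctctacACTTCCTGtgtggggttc
Cd3g held the E box 148 and 35 bases before its start and Cd3d 112 before. In Cd3e the Ets-type letters lay 18 bases before the start and an E box 3 bases after it, outside the run shown, whose last 16 bases lie in an annotated exon. Searched on both strands from 250 bases before to 50 after the start, all 3 genes with a promoter in the RefSeq table held CACCTG, as did 20.2% of the 32851 promoters, and CAGGAAGT stood in Cd3e and in 3.33% of promoters. Of the B rule genes Cd79a and Ebf1 were in that table. The Cd79a window held both of those motifs, and neither gene's windows held the EBF letters CCCNNGGG (13.7% of promoters) or the octamer ATTTGCAT (1.74%). A match in letters is not a bound site, and nothing here measures binding.

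Beyond the rule genes, T members carried the rest of the T cell receptor and its signalling genes. For tests the UMIs were summed into 9 profiles (T members, B members and other cells in each library) and compared with edgeR's quasi-likelihood test, with library as a block and Benjamini-Hochberg adjustment over all genes tested. Against the other cells, 47 genes (1.14%) were higher and 2 (0.0487%) lower of the 4108 tested at an adjusted p under 0.05, rule genes left out. Leaving out control 1, which held the near-identical barcodes, gave 197 higher and 220 lower, leaving out the 27 barcodes gave 180 and 120, and leaving out knockout 4 gave 23 and 0. In the monocyte-poor T members alone 182 genes (22.6%) were higher and 280 (34.7%) lower of the 807 tested. These members were chosen for low monocyte transcripts, so a lower value of such genes in them is not a result.

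Trac, the constant part of the T cell receptor alpha chain (chr14:54220521-54224206, plus strand), was read at 1.30, 4.82 and 3.9 UMIs per 10000 UMIs in the T members of control 1, control 3 and knockout 4. In the other cells its level was 0.00179, 0.000416 and 0.00135. Every T value lay above every value of the other cells (edgeR log2 fold change 11.3 ± 0.73 SE, adjusted p = 4.97e-05). The T value of control 1 was the low one, and among monocyte-poor T members it was 6.64, with 4.82 and 5.47 in the others, a pooled level 5685 times that of the other cells (95% counting interval 3147 to 10996).

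Of 23 further T cell markers, 12 passed the low-count filter and all 12 were higher in T members than in the other cells; their median difference was 10.74 on the log2 scale, and that of all genes tested -0.10. A gene of the list could pass the filter through the T members alone, so the count describes the 12 and not the list. Thy1, a surface protein of T cells, was at 0.486, 5.70 and 6.00 UMIs per 10000 in T members, 0 in the B members and at most 0.00097 in the other cells (adjusted p = 5.01e-05 against the other cells, edgeR). Lck, the kinase that starts T cell receptor signalling, was at 0.607, 4.82 and 3.30 against at most 0.00152. Trbc1 was at 1.00, 10.1 and 7.5 against at most 0.00282, but Trbc1 and Trbc2 share 45.4% of the 31-base words of Trbc1, so the split of reads between these receptor beta genes is uncertain. In each of these genes control 1 was the low T library. Gimap3 and Gimap7 (GTPases of lymphocyte survival), Tcf7 and Lef1 (transcription factors of the T lineage), Jakmip1, Ablim1 and the unnamed locus AC140209.1 were also among the 12 genes with the largest rise by the naming rule.

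The T members carried Ccl5 and genes of cytotoxic granules. Ccl5, a chemokine stored by memory and cytotoxic T cells and natural killer cells (chr11:83525778-83530518, minus strand), stood at 10.4, 94.6 and 19.8 UMIs per 10000 in T members and at 0.0848, 0.104 and 0.0336 in the other cells. Control 3 was highest and the groups did not overlap (log2 fold change 8.68 ± 0.72, adjusted p = 0.000179, edgeR). Ccl5 had 0 UMIs in the B members, so its pooled T level was at least 241-fold higher, taking 3 counts over all B members as the floor. Nkg7, a granule membrane protein, was at 1.37, 13.4 and 5.70 against 0.00846, 0.0043 and 0.00235 (adjusted p = 0.000346), and at 0 in B members. Of the 18 genes listed for natural killer and cytotoxic cells 5 were tested, and all 5 were higher in T members (1.14% of all genes were): Ccl5, Nkg7, Gzma and Gzmb (proteases of cytotoxic granules) and the kinase Txk. These genes are near 0 outside the T members and passed the filter through them, so the count is a description. In B members 0 of the 5 were called.

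The cytotoxic genes were spread unevenly over single barcodes. Of the 29 monocyte-poor T members 20 had a Ccl5 UMI (3 of 7 in control 1, 13 of 15 in control 3, 4 of 7 in knockout 4), against 1.2% of the other cells. Nkg7 was in 21 of 29 against 0.185%, and 11 of 29 had Gzma or Gzmb. Thinned to 1000 UMIs, Ccl5 was in 51.9% and Nkg7 in 63.0% of 27 monocyte-poor T members, against 0.436% and 0.0385% of the other cells. The level of free RNA in the droplets was not measured. Single barcodes carried much of the total: 1 of control 1 with 20861 UMIs had 269 Ccl5 and 82 Gzma UMIs, and 40 of the 61 Gzmb UMIs of the monocyte-poor T members lay in another of control 1. Ifng, the cytokine interferon gamma, was in 6 of 29, with 7 UMIs at most.

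**Figure D3:**
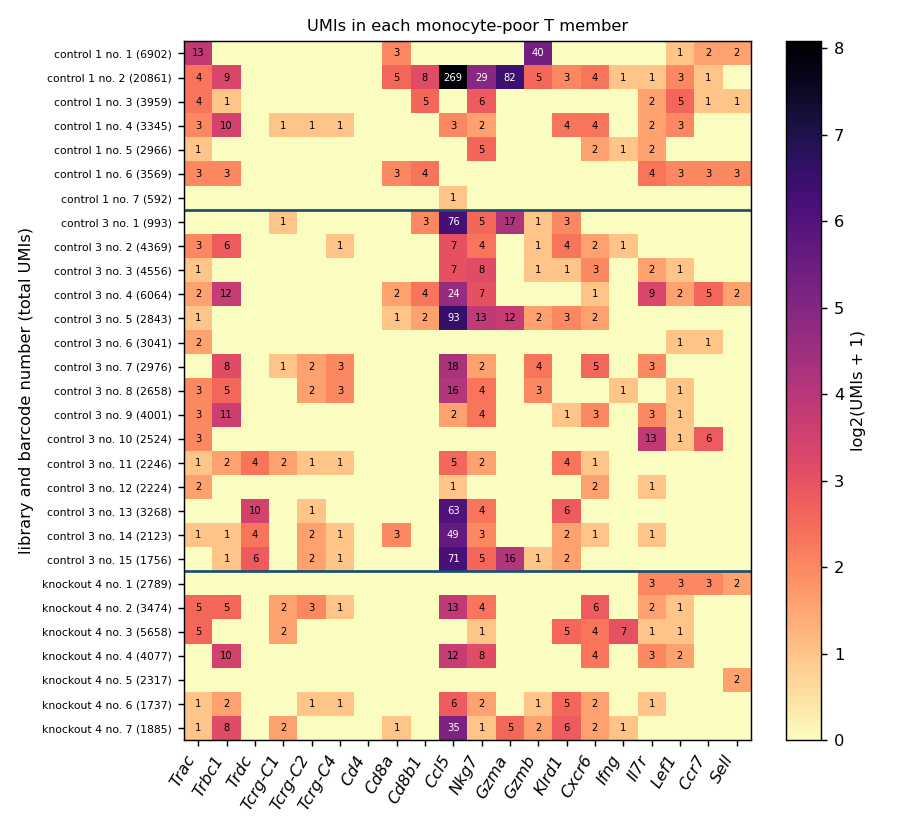
UMIs (numbers in the cells, colour on a log2(UMIs + 1) scale) of receptor, co-receptor, cytotoxic and recirculation genes (columns) in each of the 29 monocyte-poor T members (rows, by library, with total UMIs). Empty cells are 0 UMIs. Ccl5 is present in 20 rows, Cd4 in 0, and Trdc in 4 rows of control 3.

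By receptor and co-receptor genes the 29 monocyte-poor T members were mixed. Trac was in 21 of them (6, 11 and 4 in control 1, control 3 and knockout 4). Cd8a or Cd8b1, the co-receptor of cytotoxic T cells, was in 9 (4, 4 and 1). Cd4, the co-receptor of helper T cells, was in 0, which allows a share of up to 10.3% of barcodes with a UMI and sets no limit on cells that express it, and Foxp3 of regulatory T cells was also in 0. Cd4 UMIs occurred in 2 monocyte-rich T members of control 1 and in 0.0555% of the other cells. Trdc, the delta chain constant gene, was in 4, all of control 3, and a gamma chain constant gene (Tcrg-C1, Tcrg-C2 or Tcrg-C4) was in 13 (1, 8 and 4). Of the 4 Trdc barcodes 2 also had Trac and 1 had Cd8a. None of Cd4, Cd8a, Cd8b1 and Trdc was seen in 17 (3, 8 and 6). At a median of 2976 UMIs a co-receptor can go unread, so those 17 are not shown to lack one. Ncr1, a receptor of natural killer cells, was in 0 of 29.

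Genes known from tissue-resident and from recirculating lymphocytes were both read in T members. Cxcr6, a chemokine receptor of liver-resident T and innate-like cells, was at 2.37, 4.38 and 8.21 UMIs per 10000 in monocyte-poor T members, against 0.00103, 0.00111 and 0.000673 in the other cells (edgeR adjusted p = 1.51e-10). It was in 17 of 29 against 0.074% of the other cells, and in 37.0% of 27 against 0.0128% at 1000 UMIs. Of the 17 barcodes without Cd4, Cd8a, Cd8b1 and Trdc, 11 had Cxcr6. Cxcr6 does not stand for its list. Of the 13 genes for effector and tissue memory 6 were tested in monocyte-poor T members, Cd69, Cxcr6 and Id2 being higher and Cd44 and S100a4 lower. In that fit 22.6% of all genes were higher and 34.7% lower, so the counts are a description. The members were chosen for few monocyte transcripts, and the lower values are not read as a result. The list summed to 19.0, 29.8 and 52.4 UMIs per 10000 in monocyte-poor T members, against 39.7, 33.4 and 40.8 in the other cells. Of the genes for naive and recirculating lymphocytes 8 were tested in all T members and 6 were higher, where 1.14% of all genes were: S1pr1 and Ccr7 (exit from tissue and homing to lymph nodes), Il7r, Lef1, Tcf7 and Satb1. Lef1, Tcf7 and Ccr7 were near 0 in the other cells, so the filter could be passed through the lymphocytes alone and the count is a description. Il7r, the interleukin 7 receptor, was at 0.364, 7.01 and 3.9 against 0.148, 0.166 and 0.444 (log2 fold change 3.37 ± 0.66, adjusted p = 0.0292). Cxcr6 stood beside Il7r in 13 of the 17 barcodes with Il7r and beside Lef1 in 8 of the 15 with Lef1. Over all 29 barcodes Cxcr6 was in 17 (58.6%), so the overlap is not read as a link between these genes. Ccr7 or Lef1 without Ccl5 and Cxcr6 was seen in 6 of 29, Ccr7 and Cxcr6 together in 2, and Ccl5 with Ccr7 or Lef1 in 8. Cd69, an early activation and retention marker, was higher in T members (0.728, 2.85 and 3.00 against 0.0945, 0.133 and 0.119, adjusted p = 0.00552) and was 1 of 9 tested activation genes to be called, beside 1.14% of all genes.

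B members carried immunoglobulin genes and other B cell markers. Ighd was in 29 of the 46. The 9 genes listed for mature B subsets summed to 22.4 UMIs per 10000 in all B members and 17.6 in monocyte-poor ones, not above the 25.3 of the other cells. Gene by gene the reading differed. The 5 tested over all B members had a median pooled log2 ratio of 0.98 to the other cells, against -0.085 for all genes. For the 2 tested in monocyte-poor B members it was 5.81, against -0.43. Genes could pass the filter through the B members alone, so these medians describe the tested genes and not the list. Against the other cells 60 genes (1.46%) were higher and 3 (0.073%) lower of 4108 by edgeR. Leaving out knockout 4 gave 28 and 0, control 3 gave 97 and 23, and without the 27 near-identical barcodes, which hold no B member but belong to the other cells and T members, 36 and 2 of 1733 tested were called. In monocyte-poor B members 173 genes (21.4%) were higher and 249 (30.9%) lower of 807, or 114 and 289 when profiles were scaled by library totals in place of TMM, which moved the median of all genes from -0.27 to -0.50.

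Of 24 listed B cell markers 17 were tested and 17 were higher in B members, at a median difference of 12.49 on the log2 scale, where that of all genes was -0.05; in T members 0 of the 17 were called. The filter could again be passed through the B members alone. Ighm, the heavy chain of IgM (chr12:113418558-113422730, minus strand), was at 11.6, 5.28 and 38.1 UMIs per 10000 in B members of control 1, control 3 and knockout 4, against 0.371, 0.366 and 0.175 in the other cells (log2 fold change 5.53 ± 0.71, adjusted p = 0.00115, edgeR). Knockout 4 was highest and the groups did not overlap. Ighd, the IgD heavy chain of mature naive B cells, was at 3.68, 1.47 and 4.84 against at most 0.000769. Pax5 and Pou2af1, transcription factors of the B lineage, had 26 and 23 UMIs in the B members and 0 in the other cells, at least 3479-fold and 3078-fold higher with 3 counts over the other cells as the floor. Fcmr, the receptor for IgM, had 53 UMIs against 1 in the other cells, a ratio whose 95% counting interval starts at 3657. Mzb1, which helps immunoglobulin assembly, and Ly6d, a surface protein of B cells, were at 2.21, 3.15 and 4.52 and at 9.81, 2.35 and 25.8. Ly6d was highest in knockout 4. So was Mzb1 over all B members, but among monocyte-poor ones it was highest in control 3, at 18.5 UMIs per 10000 against 4.59 and 7.21, and 58 of those UMIs lay in 1 Igha-rich barcode.

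Vpreb3, which associates with nascent immunoglobulin chains in B cells (chr10:75943057-75949657, plus strand), was at 2.08, 1.64 and 4.84 UMIs per 10000 in B members, 0 in the T members and at most 0.000416 in the other cells, where it had 3 UMIs (ratio 9500, 95% counting interval 3122 to 47163). Its start region is shown because it was the 1 B member gene examined whose window held the octamer, the letters that Oct factors bind together with the co-activator encoded by Pou2af1. The octamer ATTTGCAT, in capitals, lies 45 bases before the RefSeq start, and 1.74% of all promoters hold it within the 300-base window. An Ets-type CAGGAAGT lies 165 bases before the start, outside the run.
Vpreb3, GRCm38.p6 chr10:75948150-75948299, plus strand: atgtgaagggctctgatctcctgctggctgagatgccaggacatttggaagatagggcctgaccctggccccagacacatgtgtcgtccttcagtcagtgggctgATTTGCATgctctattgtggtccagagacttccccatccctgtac
The windows of Pax5, Pou2af1 and Ebf1 held neither the octamer nor CCCNNGGG, which says only that these letters are not in those windows.

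**Figure D4:**
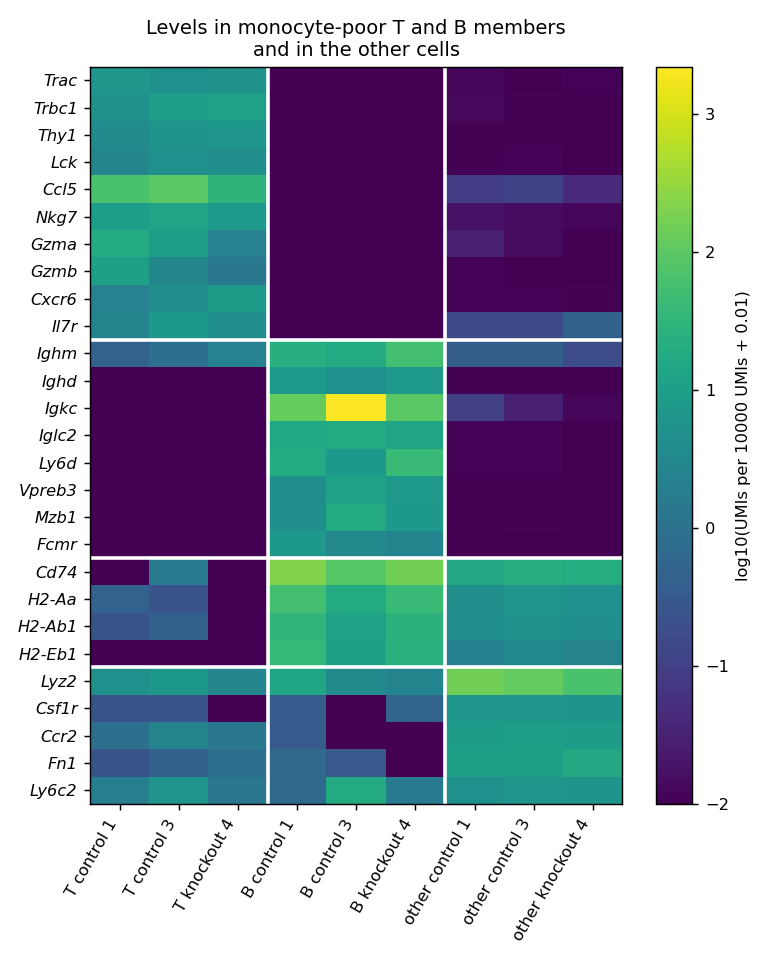
UMIs per 10000 UMIs, on a log10(value + 0.01) colour scale, for T cell genes, B cell genes, antigen presentation genes and monocyte genes (rows, top to bottom) in the monocyte-poor T members, the monocyte-poor B members and the other cells of each library (columns). The darkest colour is a level of 0. Ccl5 lies between 30.1 and 94.6 in the T columns and at 0 in the B columns.

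In most B members kappa UMIs outnumbered lambda UMIs. Igkc, the kappa constant gene (chr6:70726435-70726966, plus strand), was at 386.6, 309.8 and 60.3 UMIs per 10000 in B members against 0.0940, 0.0194 and 0.00235 in the other cells (log2 fold change 13.5 ± 0.64, adjusted p = 8.45e-07, edgeR). Of the 3 libraries, control 1 had the highest level in the other cells and knockout 4 the lowest, with an Igkc UMI in 304, 138 and 7 of them. The order among B members rests on the pair of Igha-rich barcodes described below: without them the levels were 73.1, 14.1 and 60.3, with control 3 lowest. Of the 27 monocyte-poor B members 24 had more kappa than lambda UMIs and 3 had more lambda, 1 in control 3 and 2 in knockout 4. UMIs of both were read in 24 of the 27. The lambda constant genes Iglc1, Iglc2 and Iglc3 were each higher in B members than in the other cells, and Iglc2 and Iglc3 share 18.4% of the 31-base words of Iglc2, so their split is uncertain. In knockout 4, 43 of 50 Iglc1 UMIs lay in 1 barcode that had 6 Igkc UMIs. Ighm was in 26 of the 27, Ighd in 21, Ly6d in 21 and Ccr7 in 20. Thinned to 1000 UMIs, Igkc was in 92.6% and Ighm in 85.2%, against 0.372% and 3.00% of the other cells, and Ighd in 40.7% against 0. Among all 46 B members 6 had no light chain UMI, and these were all monocyte-rich.

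**Figure D5:**
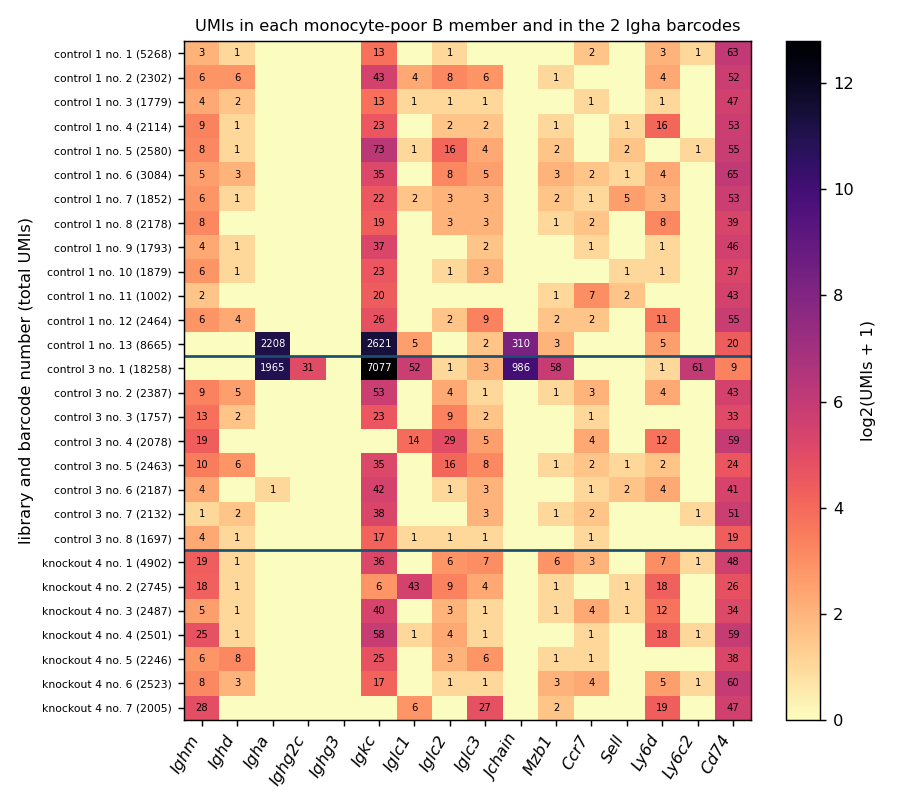
UMIs (numbers in the cells, colour on a log2(UMIs + 1) scale) of immunoglobulin, plasma cell, homing, Ly6 and antigen presentation genes (columns) in the 27 monocyte-poor B members and the further Igha-rich barcode of control 1 (rows, by library, with total UMIs). Empty cells are 0 UMIs. The 2 Igha-rich rows stand out with 1965 and 2208 Igha UMIs and 0 Ighm, and Cd74 is present in every row.

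A pair of barcodes was rich in Igha, Igkc and Jchain, genes of IgA plasma cells, and was singled out after the values were seen. In control 3 a barcode of 18258 UMIs had 1965 Igha, 7077 Igkc, 986 Jchain and 58 Mzb1 UMIs. It had 0 Ms4a1 and 0 Ebf1 UMIs, and its monocyte share was 0.0222 of the other cells' median. In control 1 a barcode of 8665 UMIs had 2208 Igha, 2621 Igkc and 310 Jchain UMIs, but only 3 Mzb1 UMIs. Its monocyte share of 0.277 lay above the monocyte-poor limit. The pair holds all but 1 of the 4174 Igha UMIs and all 1296 Jchain UMIs of the B members, where Igha is the IgA heavy chain and Jchain joins IgA units. Knockout 4 had no such barcode. In the other cells Igha stood at 0.0220, 0.0114 and 0.00101 UMIs per 10000 in control 1, control 3 and knockout 4, the lowest in the library without one.

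Antigen presentation genes were high in the monocyte-poor B members. Cd74, the chaperone of MHC class II, was at 215, 84.7 and 161 UMIs per 10000 in monocyte-poor B members of control 1, control 3 and knockout 4, at 16.8, 23.7 and 20.5 in the other cells, and at 0, 1.53 and 0 in monocyte-poor T members. All 6 tested class II genes were higher in monocyte-poor B members than in the other cells (Cd74 log2 fold change 3.07 ± 0.28, adjusted p = 3.09e-09, edgeR), under TMM, DESeq2's scaling and library totals alike, where 21.4% of all genes were higher. The low T values are not read as a result, since monocytes express class II and these T members were chosen for few monocyte transcripts. H2-Aa, a class II alpha chain, was at 56.6, 18.2 and 41.2 against 4.33, 6.03 and 5.12 in the other cells. Over all B members 2 of 9 tested class II genes passed, where 1.46% of all genes were higher. They were H2-DMb2 and H2-Ob, which encode part of the peptide-loading machinery (H2-DMb2 adjusted p = 0.000742, edgeR). The Cd74 difference was 2.03 with an adjusted p of 0.718. The monocyte-rich B members had been summed with the others there.

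Compared directly, T and B members differed in receptor and immunoglobulin genes. By edgeR 4 (0.0974%) were higher in T members, Ccl5, Nkg7, Thy1 and Trac, and 12 (0.292%) higher in B members, of 4108 tested. The B side held Igkc, Ighm, Ighd, Iglc2, Iglc3, Ly6d, Mzb1, Vpreb3, Fcmr, Bank1 (an adaptor of B cell receptor signalling), Mef2c (a transcription factor) and H2-Aa. Mef2c was at 7.85, 2.47 and 5.81 UMIs per 10000 in B members and 0.303, 0 and 0.300 in T members (adjusted p = 0.00752). Between monocyte-poor members 43 (5.33%) were higher in T and 67 (8.3%) higher in B of 807. Without control 1 the counts over all members were 57 and 49, without control 3 they were 2 and 21, and without knockout 4 they were 1 and 6. Without the library block, 1 and 9 were called.

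Genes lower in members than in the other cells were few when all members were summed. In T members these were Saa3, an acute-phase protein (0.212, 0 and 0.300 UMIs per 10000 against 1.27, 1.36 and 2.52, log2 fold change -2.88 ± 0.60, adjusted p = 0.0429, edgeR) and the globin gene Hbb-bs. Hbb-bs had 0 UMIs in T and B members against 0.602, 0.704 and 1.42 in the other cells, and 0 UMIs of the 6 erythroid genes were read in any member. In B members they were Hbb-bs, the chemokine Ccl24 (0.123, 0.0419 and 0.323 against 3.14, 1.68 and 7.71, adjusted p = 0.0192) and the interferon-induced chemokine Cxcl10 (0, 0.0839 and 0 against 0.980, 1.06 and 0.867, adjusted p = 0.0214). Genes of the neutrophil list summed to 3.89 and 6.41 UMIs per 10000 in all T and B members, against 8.09 in the other cells. In monocyte-poor T and B members they summed to 0.273 and 0.868. Those members were chosen for few monocyte transcripts, so these low sums are not read as a result. Siglech, a marker of plasmacytoid dendritic cells, was in 0 of the 27 monocyte-poor B members, which allows a share of up to 11.1%. Siglech does not stand for its list. The 11 genes listed for those cells, Ly6d among them, summed to 28.8 UMIs per 10000 in monocyte-poor B members against 9.16 in the other cells. Ly6d, given above as a surface protein of B cells, had a UMI in 21 of the 27. The 4 listed genes tested in these members had a median pooled log2 ratio of 0.02 to the other cells, against -0.43 for all genes. The sum is therefore not read as a sign of those cells.

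Many ribosomal protein genes were higher in monocyte-poor members. Of 78 tested, 69 were higher in monocyte-poor T members (median difference 1.03 on the log2 scale) and 65 in monocyte-poor B members (0.82), where all genes had medians of -0.32 and -0.27 and 22.6% and 21.4% of them were higher. Summed, they took 3135, 2710 and 2842 UMIs per 10000 in T members of control 1, control 3 and knockout 4, 2686, 1472 and 2457 in B members and 1446, 1469 and 1236 in the other cells. The B members of control 3 did not stand above the other cells, and 1 Igha-rich barcode holds 18258 of their 32959 UMIs. Scaled by library totals, 64 were higher in T members, and 27 higher and 1 lower in B members. Of all 807 genes tested, that scaling gave 173 higher in T members, and 114 higher and 289 lower in B members. Rps18, a protein of the small subunit, was at 60.7, 48.2 and 45.6 UMIs per 10000 in T members and 19.3, 20.8 and 16.6 in the other cells. Over all members 0 of the 78 passed in T or B members. Total UMIs differed between these members and the other cells as given above, and their part in the ribosomal share was not tested. Of the 16 listed type I interferon response genes 9 were tested and 0 were called in all T or B members, where 1.14% and 1.46% of all genes were called higher.

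The sort was for Ly6C, whose protein is encoded by Ly6c1 and Ly6c2 on chromosome 15. Ly6c2 (chr15:75108158-75111970, minus strand) was at 4.85, 6.08 and 5.91 UMIs per 10000 in the other cells, and at 1.90, 6.13 and 1.37 in monocyte-poor T members (log2 fold change -1.28 ± 0.58, adjusted p = 0.0627, edgeR). In control 3 the T members reached the other cells' level, and in the other libraries they did not. These T members were chosen for few monocyte transcripts, so a lower Ly6c2 value in them is not read as a result. Ly6c1 (chr15:75044018-75048830, minus strand) was at 0, 1.32 and 1.82 in monocyte-poor T members against 0.00307, 0.00582 and 0.0037 in the other cells, 197 times as high when pooled (95% counting interval 90.5 to 387), and it was too low to be tested. Of the 29 barcodes 6 had Ly6c1, 13 had Ly6c2 and 18 had either. The genes share 44.5% of the 31-base words of Ly6c1, so their split is uncertain. Ly6a, also called Sca-1, was higher in T members (0.789, 5.70 and 2.10 against 0.0994, 0.125 and 0.0911, adjusted p = 0.00444) and in B members (1.59, 1.09 and 6.13, adjusted p = 0.00534).

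Ly6C transcripts were read in a minority of the monocyte-poor B members, which were chosen for few monocyte transcripts. Ly6c1 had 0 UMIs over the 27 barcodes. Ly6c2 was at 0.707, 18.8 and 1.55 UMIs per 10000 in control 1, control 3 and knockout 4. The high value came from 1 barcode: 61 of the 62 Ly6c2 UMIs of control 3 lay in the Igha-rich barcode described above, while that of control 1 had 0. Of the 27 monocyte-poor B members 7 had a Ly6c2 UMI. Transcript levels do not give the surface protein on which a sort acts.

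The comparison of knockout with control within members rests on 1 library against 2. In T members edgeR called 0 genes (0%) of 1000, with 2 genes at an unadjusted p under 0.05, and DESeq2 called 0 with 5. The smallest p-values were for Fgl2, Ifi203 and Cd44 with the knockout value above and Cd74, Cxcl2 and Cstb with it below, each with an edgeR adjusted p of 0.999. In monocyte-poor T members 1 gene (0.111%) was called of 898: Ccl5 at 64.7, 94.6 and 30.1 UMIs per 10000 in control 1, control 3 and knockout 4 (log2 fold change -1.42 ± 0.33, adjusted p = 0.0191, edgeR). Ccl5 in the other cells was also lowest in knockout 4 (0.0336 against 0.0848 and 0.104), 1 barcode of control 1 held 269 of its 273 Ccl5 UMIs, and the part of these in the result was not tested. Without the 27 near-identical barcodes, Ccl5, Apoe and Cd74 were called lower, with edgeR log2 fold changes of -1.79, -3.40 and -8.85. Monocyte-rich T members of control 1 remained in that fit, with 64, 33 and 68 Cd74 UMIs each. In monocyte-poor T members Cd74 was at 0, 1.53 and 0 UMIs per 10000 in control 1, control 3 and knockout 4. The part of the monocyte-rich barcodes in these calls was not tested.

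In B members edgeR called 2 genes (0.102%) lower in the knockout of 1966: Jchain, at 38.0, 41.3 and 0 UMIs per 10000 (adjusted p = 0.000803), and Igha, at 271, 82.4 and 0 (adjusted p = 0.00224). Both rest on the pair of IgA barcodes. Without that pair 6 genes were called, Iglc1 higher (log2 fold change 3.48 ± 0.60, adjusted p = 1.01e-05), resting mostly on the single lambda barcode above, and Fn1, Id3, Cxcl2, Hexa and Emb lower (edgeR adjusted p from 0.0213 to 0.0391). Fn1 is a gene of the monocyte list, and the monocyte-rich B members numbered 7, 10 and 2 in control 1, control 3 and knockout 4. In monocyte-poor B members 0 of 484 genes were called by edgeR, with 9 at an unadjusted p under 0.05, and DESeq2 called 5 over all B members. These genes were named after their values were seen.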

How the data were processed

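The deposited files hold raw UMI counts per gene and barcode, with 53802 genes, in 3 libraries of Ly6Chi liver monocytes. The authors made these counts with Cell Ranger 3.0.2 and bcl2fastq on GRCm38, per the submitters' processing notes. Barcodes with over 10% mitochondrial UMIs were left out, with no gene minimum; no doublet caller was run. The members and gene lists were chosen with earlier results of these data known. Counts were summed per class and library and tested with edgeR 4.0.16 (TMM, filterByExpr with a minimum count of 10, quasi-likelihood, library block) in R 4.3.3, with DESeq2 1.42.0 as an alternative; the scripts were tested on simulated data. Genes named were the 12 largest rises and 6 largest falls (8 and 8 for T against B) past an adjusted p of 0.05, at 50 CPM or more in the higher class and of 1 sign in all 3 libraries, plus list members. Levels are UMIs per 10000 UMIs of a summed class. Near-identical barcodes were found by chi-square over 1000 genes, and intervals used Python 3.11.15 with scipy 1.17.1. Gene coordinates are from GENCODE M21 and promoters from RefSeq, both on GRCm38. Alternatives were other rules for members, depths, scalings and filters, and leaving out each library.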

Additional observations from a re-analysis of the deposited data

How the results depend on the processing

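Leaving out each library in turn moved the T share between 0.189 and 0.298% and the B share between 0.222 and 0.321%. With monocyte-poor members only the shares were 0.178% for T and 0.166% for B, and thinned to 1000 UMIs 0.153% and 0.185%. Leave-one-library-out counts of genes were 23 to 197 higher and 0 to 220 lower for T against other cells, 28 to 97 and 0 to 23 for B, and 1 to 57 and 6 to 49 for T against B. For monocyte-poor members the counts of higher genes were 140 to 190, 145 to 151 and 9 to 37.

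For T against other cells (47 higher, 2 lower), DESeq2 gave 85 higher, no low-count filter 326 and 107, monocyte-poor members 182 and 280, and leaving out the near-identical barcodes, chosen after seeing the data, 180 and 120. With at least 3 rule genes 0 were lower, and with at least 500 detected genes 1. For B against other cells (60 and 3), monocyte-poor members gave 173 and 249, no filter 211 and 44, the near-identical barcodes left out 36 higher, library totals 5 lower, at least 3 rule genes 0 lower. For T against B (4 and 12), DESeq2 gave 15 and 21, monocyte-poor members 43 and 67, no filter 60 and 43, library totals 13 higher, the near-identical barcodes left out 16 higher. Library totals gave 114 higher genes in monocyte-poor B members. The library pairs the classes, since T, B and other cells of a library share its animal source; with no replicate block, 1 gene was lower for B against other cells and 1 higher for T against B. No paired analysis of knockout against control was possible because the groups share no replicate number.

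Knockout against control in T members gave 1 call in monocyte-poor members and 3 without the near-identical barcodes, in place of 0. In B members it gave 5 by DESeq2, 0 in monocyte-poor members and 6 without the IgA barcodes, added after seeing the data, in place of 2. The cause of these moves was not tested. Of the tests of single named genes between classes, 403 kept their direction and side of the threshold, 47 lost significance (18 of them without knockout 4) and 0 reversed; of those in the knockout comparison 50 held, 2 were lost and 1 was gained. Of 28 shares of members under another depth or member set, 13 moved beyond their interval. With 87 members, a gene in few UMIs per barcode can go unread.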
